A study of Mus musculus with 8 samples.

Results

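The 10 genes described here make or sense the lipid mediators derived from arachidonic acid. They comprise the prostaglandin enzymes Ptgs1, Ptgs2, Ptges and Hpgds, the leukotriene enzymes Alox5, Alox5ap, Lta4h and Ltc4s, the lipoxygenase Alox15, and the leukotriene B4 receptor Ltb4r1. Members were taken by gene symbol, and all 10 were found among the 32285 genes counted. The cells were CD45+ immune cells sorted from E0771 mammary tumors of female mice on day 18 and profiled one cell at a time. E0771 is a triple-negative mammary tumor line of C57BL/6 mice, grown here in the mammary fat pad. E0771-Res1 and E0771-Res2 are cell lines raised from E0771 tumors that relapsed after paclitaxel plus anti-PD-1 antibody, and each is a single derived line. Data of 2 mice with parental E0771 tumors, 3 with E0771-Res1 and 3 with E0771-Res2 were used. The age of the mice was not given in the sources used here.

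Cyclooxygenases turn arachidonic acid into prostaglandin H2. Ptgs1 encodes the form present at rest and Ptgs2 the form induced by inflammatory signals, and terminal synthases then make prostaglandin E2 (Ptges) or D2 (Hpgds, the hematopoietic synthase). In the leukotriene branch, 5-lipoxygenase (Alox5) works with its activating protein (Alox5ap). The product, leukotriene A4, becomes leukotriene B4 through Lta4h or leukotriene C4 through Ltc4s, and leukotriene B4 draws myeloid cells through the receptor Ltb4r1.

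Promoter sequence is shown first, and its relation to the levels of the members in the cell classes was not tested. RefSeq (GRCm38.p6) gave the 250 bases before the transcription start for 8 of the 10 members, and Alox5ap and Alox15 were not among them. The letters GAGGAA, the core read by ETS family factors such as PU.1 of myeloid cells, occurred on either strand in 7 of the 8 stretches and in 23.3% of 32851 promoters of the same length. Ltc4s was the member without them. Each line gives the strand that carries GAGGAA, 5′ to 3′, with those letters in capitals and up to 10 bases on each side.
Ptgs1, chr2:36230392-36230417, plus strand: ggctggagcaGAGGAAgttggcggtc
Ptgs2, chr1:150099781-150099799, plus strand: tggGAGGAAaccggagacc
Ptges, chr2:30903431-30903456, plus strand: gtgggaagcaGAGGAAtggaggtgtc
Hpgds, chr6:65144764-65144789, minus strand: cttttaggtgGAGGAAgtggcctctg
Alox5, chr6:116461299-116461324, minus strand: agatggggcaGAGGAAcaagggcttc
Lta4h, chr10:93453260-93453285, minus strand: gaggtgcgggGAGGAAccgaggggtg
Ltb4r1, chr14:55765823-55765848, minus strand: gtccaaaagaGAGGAAgactctttgg
The core began 24 bases before the start in Ptgs1, 49 in Hpgds, 126 in Lta4h, 129 in Ltb4r1, 136 in Alox5, 149 in Ptges and 247 in Ptgs2. In Ptges, Lta4h and Ltb4r1 it lay on the strand opposite to the gene. Distances are from the RefSeq start, and annotated exons of the same gene in GENCODE overlap 178 of the 250 Hpgds bases and 84 of the Ltc4s bases. The Hpgds stretch lies partly inside the annotated span of its gene. The Ptges stretch lies wholly inside that of its own gene, with 0 bases in exons.

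The whole stretch is shown for Ptgs2 and Ltb4r1, the inducible enzyme and the receptor, with capitals for every motif match on either strand.
Ptgs2, chr1:150099781-150100030, plus strand: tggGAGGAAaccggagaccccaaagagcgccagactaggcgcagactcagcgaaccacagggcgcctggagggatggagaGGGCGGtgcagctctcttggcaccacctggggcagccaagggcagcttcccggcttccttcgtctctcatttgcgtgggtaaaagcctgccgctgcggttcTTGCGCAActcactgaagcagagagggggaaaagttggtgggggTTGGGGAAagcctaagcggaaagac
Ltb4r1, chr14:55765712-55765961, plus strand: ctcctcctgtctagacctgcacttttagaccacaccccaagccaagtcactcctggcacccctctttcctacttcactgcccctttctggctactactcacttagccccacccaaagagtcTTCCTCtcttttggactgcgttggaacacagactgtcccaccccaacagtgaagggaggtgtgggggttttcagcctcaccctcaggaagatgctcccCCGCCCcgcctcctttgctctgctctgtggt
Of the Ptgs2 stretch, 183 bases lie in exons of the neighbouring gene Ptgs2os. The C/EBP type motif TTNNGNAA, read by factors that respond to inflammatory signals, matched at 69 and 25 bases before the Ptgs2 start, and it was in 3 of the 8 members (Ptgs2, Ptges, Hpgds) and 36.8% of all promoters. The GC box GGGCGG was in 4 members (Ptgs2, Ptges, Alox5, Ltb4r1) and 32.7% of all promoters. CCAAT was in 1 member, Lta4h, and 33.8% of all promoters. The searched letters of the TATA box (TATAAA, 12.4% of promoters), the core of the CRE site (CGTCA, 17.8%) and the AP-1 site (TGACTCA, 4.46%) were in none of the 8 stretches. Bases outside the stretches, among them those after the start, were not searched. A match is a description of these letters, and binding was not measured.

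Of 11430 deposited cells, 10605 had 500 to 6000 detected genes and under 10% mitochondrial UMIs (unique molecular identifiers, each standing for 1 captured RNA molecule) and were kept. The kept cells of a mouse held 4993722 to 18544500 UMIs. Cells were assigned to classes by marker genes, none of them a member, which gave 4529 monocytes, 2259 macrophages with at least 10 C1qa UMIs, 419 dendritic cells and 761 lymphoid cells, while 2611 cells met no gate. Monocytes and macrophages of E0771-Res2 were shallower, with median UMIs per cell of 5158 to 6383 and 6977 to 8749 per mouse against 6749 to 7950 and 9943 to 11458 in the other lines. Macrophage markers outside the gates (Adgre1, Mrc1, Trem2, C1qb) summed to 6006 to 7827 CPM in macrophages and 447 to 680 CPM in monocytes. CPM here are UMIs per 1000000 UMIs of a mouse's cells in that class. No cell barcode was shared between mice.

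Reads came from the 3′ end of each RNA, so a level is compared for the same gene between cells and not between genes. Over all kept cells, Alox5ap gave 39927 UMIs, Ptgs2 10635, Hpgds 6420, Ltb4r1 4703 and Lta4h 2329. The other 5 members were near the limit of detection. Ptges gave 182 UMIs, Ltc4s 176, Alox5 105, Ptgs1 79 and Alox15 8. An Alox5 UMI was found in 41 of 4529 monocytes and 11 of 2259 macrophages.

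Of the 5 abundant members, Hpgds was highest in macrophages, Ptgs2, Alox5ap and Ltb4r1 were highest in monocytes, and Lta4h had its highest mean CPM in lymphoid cells. In the edgeR quasi-likelihood fit over the 4 classes of each mouse, 5 of 10 members passed the filter on low counts. All 5 differed between macrophages and monocytes, a contrast in which 49.1% of 9278 tested genes were called at adjusted p under 0.05, so the count of members reads against a high background.

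Hpgds, on chromosome 6 (chr6:65117293-65144908, minus strand), makes prostaglandin D2. In macrophages it stood at 132 and 141 CPM in the E0771 mice, 130, 151 and 113 in E0771-Res1 mice, with 241, 208 and 222 for E0771-Res2. In monocytes the values were 32.8 and 35.6, then 34.6, 23.4 and 24.1, then 93.9, 67.6 and 80.8 CPM. Macrophages were above monocytes in 8 of 8 mice, with a log2 difference of 1.69 (SE 0.10, adjusted p = 8.58e-16). Dendritic cells (12.4 to 34.3 CPM) and lymphoid cells (14.5 to 55.3 CPM) were lower again, by 3.14 and 2.88 on the log2 scale below macrophages, and did not differ from each other beyond their spread (lymphoid minus dendritic 0.26, adjusted p = 0.506).

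Ptgs2, the inducible cyclooxygenase on chromosome 1 (chr1:150100031-150108227, plus strand), was higher in monocytes than in macrophages. Monocytes held 296 and 176 CPM in E0771, 313, 412 and 258 in E0771-Res1 mice, with 154, 171 and 158 for E0771-Res2. Macrophages held 129 and 144, then 100, 156 and 123, then 69.6, 85.3 and 77.7 CPM. Macrophages were below their own mouse's monocytes in 8 of 8 mice, with a log2 difference of -1.25 (SE 0.12, adjusted p = 1.42e-10). Dendritic cells ranged from 41.6 to 150 CPM. They lay below monocytes (log2 difference -1.62, adjusted p = 8.00e-10), and their difference from macrophages of -0.38 was not called (95% interval -0.76 to 0.01, adjusted p = 0.105). That difference was called without E0771 replicate 3 (-0.43, adjusted p = 0.0405), without E0771-Res1 replicate 3 (-0.53, adjusted p = 0.0206) and with no filter on low counts (-0.40, adjusted p = 0.00512). Lymphoid cells, at 21.9 to 107 CPM, were lowest.

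Alox5ap (chr5:149264767-149288153, plus strand), which hands arachidonic acid to 5-lipoxygenase, gave a UMI in 3687 of 4529 monocytes. Monocyte levels were 967 and 958 CPM in E0771, 817, 1006 and 861 in E0771-Res1 mice, with 780, 905 and 649 for E0771-Res2. Macrophages were lower in 8 of 8 mice, from 373 to 751 CPM (log2 difference -0.83, SE 0.10, adjusted p = 8.09e-09). Dendritic cells (346 to 645 CPM) gave a fitted difference from macrophages of 0.00 (95% interval -0.22 to 0.22, adjusted p = 0.994) with a higher value in 4 of 8 mice. Lymphoid cells held 129 to 229 CPM. The thinned share of cells with an Alox5ap UMI, with every cell cut to 2500 UMIs, was 58.0% to 78.8% per mouse in monocytes, 47.5% to 67.5% in macrophages and 13.5% to 23.3% in lymphoid cells, against unthinned shares of 71.3% to 88.8%, 75.3% to 93.3% and 22.6% to 39.0%.

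Ltb4r1 (chr14:55765962-55768494, plus strand), the high-affinity leukotriene B4 receptor, begins 823 bases after the end of the related receptor gene Ltb4r2. Monocytes held 169 and 126 CPM in E0771, 124, 153 and 129 in E0771-Res1 mice, with 84.1, 110 and 66.2 for E0771-Res2. In macrophages the values were 60.0 and 54.0, then 40.9, 56.0 and 59.3, then 24.0, 41.5 and 19.3 CPM. Macrophages were lower in every mouse, by 1.61 on the log2 scale in the fit (SE 0.10, adjusted p = 5.93e-15). Dendritic cells (22.6 to 106 CPM) did not differ from macrophages beyond their spread (0.17, adjusted p = 0.473), and lymphoid cells were lower (7.89 to 51.7 CPM).

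Lta4h (chr10:93453411-93484875, plus strand), the hydrolase that makes leukotriene B4, had its lowest mean level in macrophages. It was at 19.5 to 31.9 CPM in macrophages, 23.8 to 38.6 in monocytes, 34.7 to 75.4 in dendritic cells and 57.0 to 86.9 in lymphoid cells. Lymphoid cells were above monocytes in 8 of 8 mice (log2 difference 0.74, SE 0.11, adjusted p = 1.39e-07) and above macrophages in 8 of 8 (1.18, adjusted p = 2.68e-11). Lymphoid and dendritic cells, neighbours in that order, were not called apart in the fit (0.08, 95% interval -0.20 to 0.36, adjusted p = 0.802). The lymphoid CPM was the higher one in 8 of 8 mice. CPM are not scaled between classes, whereas the fit scales the sums by TMM (trimmed mean of M-values). The order of lymphoid and dendritic cells thus rests on unscaled CPM. Macrophages were slightly below monocytes (-0.44, adjusted p = 0.000294), in 7 of the 8 mice.

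**Figure D1:**
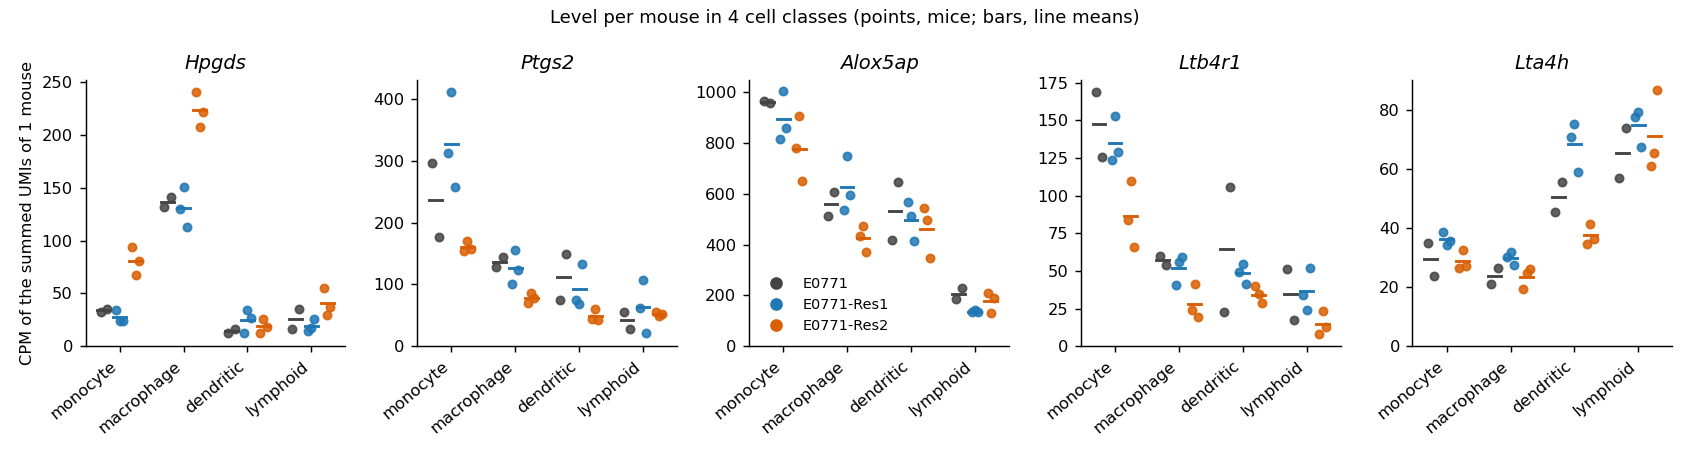
Level of the 5 abundant members in each mouse, in CPM of the summed UMIs (vertical axes from 0, a separate scale for each gene), by cell class and tumor line. Points are mice and bars the means of a line. Hpgds peaks in macrophages, where the 3 E0771-Res2 mice (208 to 241 CPM) lie above the other 5. Ptgs2, Alox5ap and Ltb4r1 are highest in monocytes, and Lta4h has its highest mean, in unscaled CPM, in lymphoid cells.

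In the other class contrasts, members called were 5 of 5 tested for dendritic cells against monocytes (44.2% of all genes), 2 of 5 for dendritic cells against macrophages (47.7%), 5 of 5 for lymphoid cells against monocytes (67.9%) and against macrophages (64.7%), and 3 of 5 for lymphoid against dendritic cells (50.9%). Lta4h was the member higher in dendritic and lymphoid cells, and the other calls were lower than in monocytes, macrophages or dendritic cells.

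The 5 sparse members are described by their UMIs. Ptgs1, the cyclooxygenase present at rest, gave at most 8 UMIs in any class of a mouse (monocytes of E0771 replicate 3, 4.13 CPM) and 0 in dendritic cells, which allows up to 0.977 CPM over the 8 mice (3 UMIs). Ptges, the prostaglandin E2 synthase, was seen in 67 of 4529 monocytes and 31 of 2259 macrophages, and its monocyte levels ran from 1.72 to 6.31 CPM. Alox5 had 8 UMIs or fewer in the monocytes of each mouse and 12 in the macrophages of E0771-Res1 replicate 1. Ltc4s, which makes leukotriene C4, had its highest mean in dendritic cells at 6.89 CPM and reached 20.7 CPM (7 UMIs) in those of E0771-Res1 replicate 3. Alox15, an enzyme of lipoxin and resolvin synthesis, gave 2 UMIs in all monocytes, 1 in all macrophages and 0 in dendritic and lymphoid cells, which allows up to 0.977 and 0.655 CPM. None of the 5 passed the filter of the fit between classes, so no test of them between classes is given. Mean Ptges was 3.70 CPM in monocytes and 0.143 CPM in dendritic cells, and monocytes had the higher value in 8 of 8 mice. Mean Ltc4s was 3.64 CPM in macrophages and 1.24 CPM in monocytes, with the macrophage value higher in 7 of 8 mice.

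Free RNA in droplets places some UMIs in cells that do not make a gene, so each low level was set against markers of the class where the gene is high. Lymphoid cells held a median of 17.8% of the monocyte level of Alox5ap, 20.5% of Ltb4r1 and 22.8% of Ptgs2. The monocyte markers in the same sums were at 10.7% (Hp), 12.1% (Fn1), 13.6% (Chil3), 17.4% (Vcan) and 33.6% (Ly6c2). The 3 members thus lay above the medians of 4 of these 5 markers and below that of Ly6c2, and the part of free RNA in their lymphoid level was not tested. For Hpgds the lymphoid level was 15.4% of that in macrophages, with C1qb at 2.86%, Adgre1 at 10.3%, Mrc1 at 10.4% and Trem2 at 11.4%, which places it above the medians of all 4 markers.

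In monocytes, Hpgds was at a median of 25.9% of its macrophage level. That was below Trem2 (27.8%), Mrc1 (30.1%) and Adgre1 (36.5%) and above C1qb (4.43%), whose partner C1qa sets the gate. The share of cells with an Hpgds UMI, with every cell thinned to 2500 UMIs, was 31.3% to 35.2% in E0771-Res2 macrophages, 24.2% to 24.4% in E0771 and 19.3% to 32.4% in E0771-Res1. Unthinned shares were 64.2% to 70.4%, 51.0% to 55.8% and 42.3% to 61.9%. In monocytes the thinned shares were 13.1% to 15.3% in E0771-Res2 against 6.59% to 7.42% and 4.34% to 6.26%, with unthinned shares of 21.1% to 30.2%, 12.5% to 13.6% and 10.9% to 14.5%. Lymphoid cells had a thinned share of 3.66% to 13.7% (median 4.72%) and an unthinned share of 5.66% to 19.5%, at a median depth per mouse of 5292 to 7671 UMIs. By line, the lymphoid thinned shares were 4.63% to 8.51% in E0771, 3.66% to 4.00% in E0771-Res1 mice and, for E0771-Res2, 4.81% to 13.7%. The monocyte shares lay within the lymphoid range of their own line in E0771, above it in E0771-Res1 and partly above it in E0771-Res2. In the fit between classes, lymphoid Hpgds was below monocyte Hpgds by a log2 difference of -1.19 (adjusted p = 2.99e-07), in 7 of 8 mice. Thinning left out 406 of 4529 monocytes, 14 of 2259 macrophages and 61 of 761 lymphoid cells.

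Dendritic cells differed by subset in 3 leukotriene genes, Alox5ap, Ltb4r1 and Lta4h. CD209A cells (110 cells, marked by Cd209a) held a median over mice of 1017 CPM of Alox5ap, from 745 to 1135, while mature cells (254 cells, marked by Ccr7, Fscn1 and Ccl22) held 121, from 11.1 to 286. Ltb4r1 was at 107 against 15.6 CPM and Lta4h at 79.4 against 29.1 CPM, and all 3 genes were higher in CD209A cells in 8 of 8 mice. Ptgs2 did not follow this split, with 56.8 against 57.4 CPM and a higher value in CD209A cells in 4 of 8 mice. Ltc4s had a median of 0 CPM in CD209A and 8.55 CPM in mature cells (3 against 18 UMIs in all), with the CD209A value the higher one in 1 of 8 mice. Alox5 had 5 UMIs in CD209A and 0 in mature cells, from 3 of the 8 mice. The 17 XCR1 cells pooled over mice held 757 CPM of Alox5ap (95% Poisson interval 636 to 894) and 103 of Lta4h (62.3 to 162). A mouse gave 8 to 26 CD209A and 10 to 61 mature cells. Intervals of pooled counts cover counting error only, and the subsets were not tested.

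Between tumor lines, macrophages of E0771-Res2 carried more Hpgds and less Ptgs2 than those of both other lines. The comparison asks whether the eicosanoid genes of immune cells differ in tumors of the therapy-resistant lines. In macrophages 6 of 10 members passed the filter, and the contrasts share mice, so their values stand side by side. For E0771-Res2 against E0771, 2 of 6 members were called where 1.98% of 9084 genes were, and for E0771-Res2 against E0771-Res1, 3 of 6 where 2.62% were. For E0771-Res1 against E0771, edgeR called 0 of 6 members, with 0.143% of genes. In that contrast 0 of 6 had an unadjusted p under 0.05 and DESeq2 called 0, with no adjusted p for 2 of 6.

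Macrophage Hpgds was higher in E0771-Res2 than in E0771 by 0.72 on the log2 scale (SE 0.13, 95% interval 0.44 to 0.99, adjusted p = 0.0109) and than in E0771-Res1 by 0.79 (SE 0.11, adjusted p = 0.00181). The lowest E0771-Res2 mouse (208 CPM) was above the highest of the other 5 (151 CPM). Groups did not overlap for 37.5% of all genes in the first contrast, which has 2 mice on one side, and for 20.5% in the second. The call against E0771-Res1 was kept in 16 of 16 alternatives. The call against E0771 was lost when either E0771 mouse was left out, without replicate 1 (0.64, adjusted p = 0.137) and without replicate 3 (0.77, adjusted p = 0.0809).

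Macrophage Ptgs2 was lower in E0771-Res2, at 69.6, 85.3 and 77.7 CPM against 100 to 156 CPM in the other 5 mice. The log2 difference was -0.82 from E0771 (SE 0.17, adjusted p = 0.0250) and -0.66 from E0771-Res1 (SE 0.15, adjusted p = 0.0306). Against E0771, the call was lost without E0771 replicate 1 (adjusted p = 0.111) or 3 (0.239) and without E0771-Res2 replicate 1 (0.0916) or 3 (0.0730). Against E0771-Res1, it was lost without E0771-Res1 replicate 2 (adjusted p = 0.0694) and without E0771-Res2 replicate 1 (0.147), 2 (0.0510) or 3 (0.116). The direction held in each of these fits.

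Of the leukotriene genes in macrophages, Alox5ap was lower in E0771-Res2 (373 to 474 CPM) than in E0771-Res1 (535 to 751 CPM), by 0.54 on the log2 scale (SE 0.13, adjusted p = 0.0402). That call was lost in 6 of 8 fits that left out 1 mouse, with adjusted p from 0.0511 to 0.213: without E0771 replicate 1 or 3, without E0771-Res1 replicate 2 and without any of the E0771-Res2 mice. Ltb4r1 gave -1.09 against E0771 (95% interval -1.67 to -0.52, adjusted p = 0.0543) and -0.87 against E0771-Res1 (adjusted p = 0.0661), neither called. Without E0771-Res2 replicate 2, whose 41.5 CPM is the highest of its group, they were -1.40 (adjusted p = 0.0114) and -1.18 (adjusted p = 0.00875). The first was also called without E0771-Res1 replicate 1 (adjusted p = 0.0270) or 3 (0.0230), and the second without E0771-Res1 replicate 1 (0.0323). Lta4h differed by 0.00 (95% interval -0.46 to 0.46) from E0771 and by -0.36 (adjusted p = 0.317) from E0771-Res1. Ltc4s, at 1.12 to 3.62 CPM in E0771-Res2 and 3.86 to 6.19 CPM in E0771-Res1, gave -0.97 (adjusted p = 0.391).

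In monocytes of E0771-Res2, Hpgds rose and Ltb4r1 fell against both other lines, and Ptgs2 fell against E0771-Res1. Hpgds was 67.6 to 93.9 CPM in E0771-Res2 and 23.4 to 35.6 CPM in the other 5 mice, a log2 difference of 1.24 from E0771 (SE 0.17, adjusted p = 0.00128) and 1.51 from E0771-Res1 (SE 0.15, adjusted p = 3.62e-05). In the first of these contrasts 2 of 6 members were called, beside 4.80% of 9636 genes, and in the second 3 of 6, beside 4.24%. Groups did not overlap for 38.2% and 22.1% of genes. Without E0771 replicate 1 the difference from E0771 was 1.18 (adjusted p = 0.0532).

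The 4 macrophage check markers, all detected, summed to 593 to 680 CPM in E0771-Res2 monocytes, 447 to 500 in E0771 and 523 to 595 in E0771-Res1. Mean monocyte Hpgds was 27.4 CPM in E0771-Res1 and 34.2 CPM in E0771. The part of these markers in the monocyte Hpgds result was not tested. In monocytes with no C1qa UMI, an alternative chosen after seeing the data, the Hpgds difference was 0.82 from E0771 (adjusted p = 0.101) and 1.55 from E0771-Res1 (adjusted p = 0.00129). A list of platelet genes, led by Pf4, which macrophages can also express, summed in macrophages to 693 to 1158 CPM in E0771-Res2, 196 to 369 in E0771 and 457 to 1313 in E0771-Res1. The E0771-Res1 range spanned that of E0771-Res2. Between 1 and 3 of its 4 genes were detected. In macrophages the 4 check markers summed to 7311 to 7772 CPM in E0771-Res2, 6006 to 6347 in E0771 and 6297 to 7827 in E0771-Res1. The sums of the 4 overlapped between the resistant lines. Among them Trem2 was at 417 to 487, 139 to 204 and 286 to 390 CPM, without overlap between E0771-Res2 and the other lines. In macrophages E0771-Res2 did not overlap with E0771 for 37.5% of all genes and with E0771-Res1 for 20.5%. The 8 monocyte markers summed to 1955 to 2443, 3565 to 4284 and 1733 to 3117 CPM, and the 3 dendritic check markers to 1913 to 2119, 4949 to 5495 and 3314 to 6155 CPM. The part of these lists in the macrophage Hpgds result was not tested.

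Monocyte Ptgs2 was lower in E0771-Res2 (154 to 171 CPM) than in E0771-Res1 (258 to 412 CPM), by 1.04 on the log2 scale (SE 0.17, adjusted p = 0.00234), and this call was kept in 16 of 16 alternatives. Against E0771, whose 2 mice stood at 296 and 176 CPM, the difference of -0.58 was not called (95% interval -0.98 to -0.18, adjusted p = 0.0964). Without E0771 replicate 3 it was -0.90 (adjusted p = 0.0334), without E0771 replicate 1 it was -0.14 (adjusted p = 0.848), without E0771-Res1 replicate 2 the call was gained (adjusted p = 0.0405), and with no filter on low counts it was -0.59 (adjusted p = 2.46e-05). E0771-Res1 against E0771 gave 0.46 (95% interval 0.06 to 0.86, adjusted p = 0.468), which was called with no filter on low counts (adjusted p = 0.00847). In that contrast edgeR called 0 of 6 members and 0.0519% of genes, and 1 member had an unadjusted p under 0.05. DESeq2 called 0 there, with no adjusted p for 3 of 6.

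Ptgs2 is also an immediate early gene, and genes that respond to tissue dissociation moved with the line. Of 14 such genes, 6 were higher in E0771-Res2 than in E0771 monocytes, among them Hspa1a (1.27), Jun (1.13) and Dusp1 (0.82), and 3 were higher than in E0771-Res1. Among all genes tested, 2.31% were higher in the first contrast and 2.43% in the second. Their summed level in monocytes was 12038 to 15599 CPM in E0771-Res2, 10404 to 10799 in E0771 and 10433 to 12806 in E0771-Res1. Ier3 of this list had mean monocyte levels of 844 CPM in E0771, 757 in E0771-Res1 and 646 in E0771-Res2, and macrophage means of 523, 504 and 383 CPM. In macrophages the sums overlapped, at 8800 to 9767, 9150 to 9190 and 8814 to 9748 CPM, and 2 genes were higher (Hspa1a, Hsph1) and 1 lower (Ier2) in E0771-Res2 than in E0771, beside 0.837% higher and 1.14% lower among all genes. The part of this list in the Ptgs2 result was not tested.

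Monocyte Ltb4r1 was lower in E0771-Res2 than in E0771 by 0.80 on the log2 scale (SE 0.17, adjusted p = 0.0134) and than in E0771-Res1 by 0.65 (SE 0.16, adjusted p = 0.0286), and the highest E0771-Res2 mouse (110 CPM) was below the lowest of the others (124 CPM). The first call was lost without E0771 replicate 1 (-0.55, adjusted p = 0.322), without E0771-Res2 replicate 1 (adjusted p = 0.0523) and without E0771-Res2 replicate 3 (adjusted p = 0.0644). The second was lost without E0771-Res1 replicate 2 (adjusted p = 0.0937) or 3 (0.0567), without E0771-Res2 replicate 1 (0.0997) or 3 (0.154), and in monocytes with no C1qa UMI (-0.54, adjusted p = 0.130). The thinned share of monocytes with an Ltb4r1 UMI was 10.4% to 15.0% in E0771-Res2, 19.4% to 23.8% in E0771 and 17.5% to 24.7% in E0771-Res1, with 1.37% to 9.88% in lymphoid cells. Unthinned shares were 17.8% to 28.0%, 37.9% to 44.9% and 33.4% to 45.5%, and 3.90% to 16.5% in lymphoid cells. Alox5ap (-0.32, adjusted p = 0.190, against E0771), Lta4h (-0.09, adjusted p = 0.830) and Ptges (-0.51, adjusted p = 0.595) were not called in monocytes. Of the 8 monocyte markers, Ccr2 and Vcan were lower in E0771-Res2 without overlap. The list as a whole did not separate the resistant lines. In monocytes E0771-Res2 did not overlap with E0771 for 38.2% of all genes and with E0771-Res1 for 22.1%. Ccr2 was at 307 to 439 CPM in E0771-Res2 monocytes, 518 to 609 in E0771 and 479 to 562 in E0771-Res1, and Vcan at 107 to 239, 305 to 338 and 250 to 346 CPM. The 8 markers of the list, all detected, summed to 8979 to 12209, 13070 to 13496 and 9826 to 11517 CPM, so the sums of the 2 resistant lines overlapped. The 3 dendritic check markers, led by H2-Ab1, summed to 1457 to 1785, 2394 to 2848 and 1955 to 4113 CPM. Their part in the results was not tested.

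**Figure D2:**
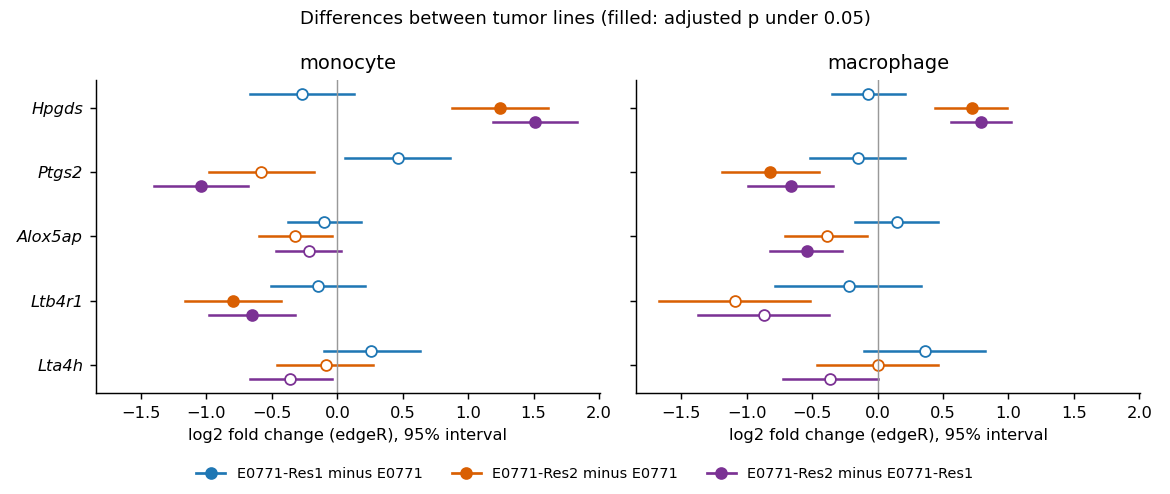
Differences between tumor lines for the 5 abundant members in monocytes (left) and macrophages (right), as edgeR log2 fold changes on the horizontal axis with 95% intervals. Filled points passed an adjusted p of 0.05, and the 3 contrasts share mice. Hpgds lies to the right of 0 and Ptgs2 to the left in both contrasts of E0771-Res2 (macrophages, 0.72 and -0.82 from E0771), while no point of E0771-Res1 minus E0771 is filled.

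In dendritic and lymphoid cells no member was called between lines by edgeR, in contrasts where 0 to 0.0762% (dendritic) and 0.0279% to 0.964% (lymphoid) of genes were. Members with an unadjusted p under 0.05 were 0, 1 and 2 of 4 in the dendritic contrasts and 1, 1 and 3 of 5 in the lymphoid ones (E0771-Res1 and E0771-Res2 against E0771, then E0771-Res2 against E0771-Res1), and DESeq2 called 0 in each. In the same order, DESeq2 gave no adjusted p for 0, 1 and 0 of 4 dendritic and 0, 4 and 2 of 5 lymphoid members. The largest dendritic difference was that of Ptgs2 in E0771-Res2 (41.6 to 59.9 CPM) against E0771 (74.3 and 150 CPM), at -1.08 on the log2 scale (adjusted p = 0.636). Dendritic Ptgs2 was also lower in E0771-Res2 than in E0771-Res1 (means 48.7 and 91.9 CPM), without a call. Lta4h in E0771-Res2 against E0771-Res1 gave -0.83 (adjusted p = 0.544). Lta4h stood at 34.7 to 41.5 CPM in E0771-Res2 dendritic cells, 45.3 and 55.6 in E0771 and 59.1 to 75.4 in E0771-Res1, so the 3 lines did not overlap, on 10 to 62 UMIs per mouse. The groups did not overlap for 23.0% of genes for E0771-Res2 against E0771, 12.4% for E0771-Res2 against E0771-Res1 and 19.7% for E0771-Res1 against E0771. Lymphoid Hpgds was 29.6 to 55.3 CPM in E0771-Res2 and 14.5 to 25.8 in E0771-Res1 (1.17, adjusted p = 0.190), the same order as in macrophages. Lymphoid Ltb4r1 in the same contrast gave -1.23 (adjusted p = 0.256), and with no filter on low counts -1.26 (adjusted p = 0.0322).

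Whether a line difference was larger in macrophages than in monocytes was tested with an interaction term. Of 7 members tested, edgeR called 0 for either line, beside 0.0402% of 9942 genes for E0771-Res1 and 0.221% for E0771-Res2. Unadjusted p was under 0.05 for 2 members and 1 member, and DESeq2 called 0, with no adjusted p for 6 of 7 in E0771-Res2. The change of Hpgds in E0771-Res2 was smaller in macrophages by 0.51 on the log2 scale (95% interval -0.87 to -0.15, adjusted p = 0.300). The change of Ptgs2 in E0771-Res1 was lower in macrophages by 0.57 (95% interval -0.97 to -0.17, adjusted p = 0.446), and with no filter on low counts this term was called (adjusted p = 0.0381). The other terms lay between -0.63 and 0.37.

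Along the C1qa UMIs of a cell, from monocytes to macrophages, the mean over 8 mice was higher at each step for Hpgds and lower for Ltb4r1. In E0771 alone, mean Hpgds was lower at 1 to 2 C1qa UMIs (32.0 CPM) than at 0 (49.1 CPM). With 0, 1 to 2, 3 to 9, 10 to 19 and at least 20 C1qa UMIs, the mean Hpgds level over 8 mice was 53.6, 58.8, 84.1, 132 and 175 CPM. Ltb4r1 went from 120 through 112, 73.7 and 56.6 to 42.1 CPM, and Alox5ap from 861 through 812, 619 and 517 to 541 CPM. Ptgs2 was at 273, 225 and 261 CPM up to 9 C1qa UMIs and at 151 and 102 CPM above. Its E0771-Res1 mice ran from 184 to 671 CPM at 3 to 9 UMIs. The bins hold 2642, 2710, 1103, 547 and 1712 cells and include cells that met no other gate. C1qa UMIs also rise with the depth of a cell, and the bins were not tested.

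The line difference in Hpgds was present in every bin. At no C1qa UMI it was 69.2 to 101 CPM in E0771-Res2, 48.1 to 50.1 in E0771 and 16.0 to 33.9 in E0771-Res1. At 3 to 9 UMIs it was 136 to 162, 47.4 to 55.4 and 32.0 to 52.6 CPM. At 20 or more it was 221 to 249, 136 to 147 and 119 to 165 CPM, so the E0771-Res2 mice did not overlap with the others in these 3 bins. In the monocyte and macrophage gates, E0771-Res2 did not overlap with another line for 20.5% to 38.2% of all genes. That share was not computed for the bins. The bins are not scaled to depth, and E0771-Res2 monocytes and macrophages were shallower. Ptgs2 was lowest in E0771-Res2 in each bin by the means of the lines, from 161 CPM against 231 and 413 at no C1qa UMI to 73.3 against 130 and 113 at 20 or more.

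**Figure D3:**
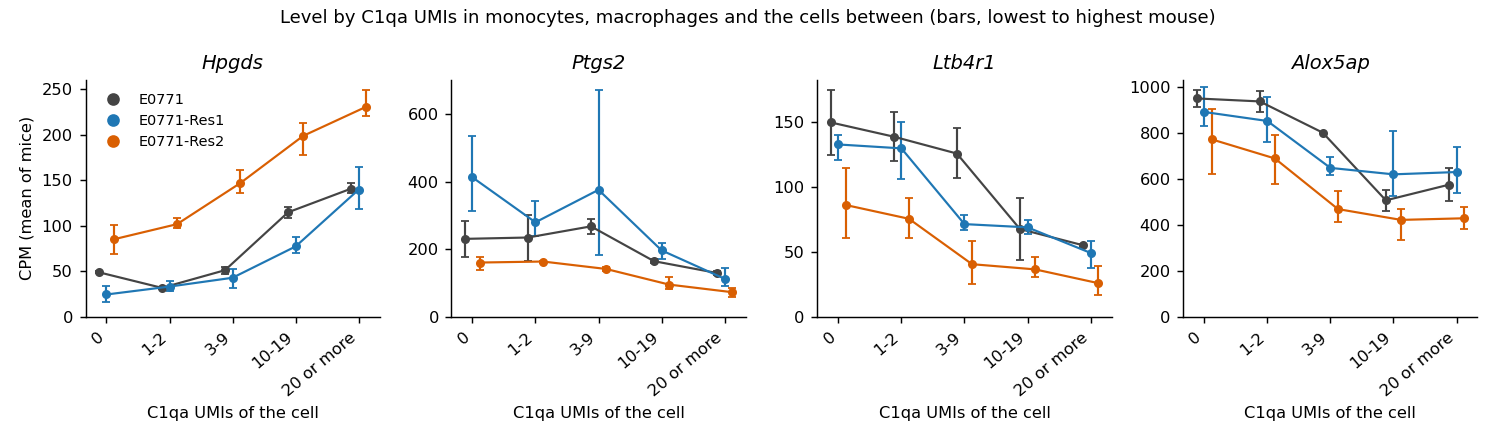
Mean level in CPM (vertical axes from 0) of 4 members by the C1qa UMIs of the cell (horizontal axis, 5 bins), in monocytes, macrophages and the cells between them. Points are means of the mice of a line and bars run from the lowest to the highest mouse. Hpgds is higher at 20 or more C1qa UMIs than at 0 in every line and is highest in E0771-Res2 throughout (85.4 to 231 CPM), while Ltb4r1 declines and is lowest in E0771-Res2 (86.3 to 26.1 CPM).

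The balance of the branches was described by the UMIs of the 4 prostaglandin genes over those of Alox5, Alox5ap, Lta4h and Ltc4s. In macrophages this ratio was 0.492 and 0.450 in E0771, 0.409, 0.391 and 0.379 in E0771-Res1 mice, with 0.684, 0.585 and 0.757 for E0771-Res2. Thus the ratio was highest in E0771-Res2, and the lines did not overlap. Ptgs2, 1 of the 4 prostaglandin genes, went the other way. Its macrophage mean was 77.6 CPM in E0771-Res2, 136 in E0771 and 127 in E0771-Res1. In the same order, Hpgds means were 224, 137 and 131 CPM. On the leukotriene side, Alox5ap means were 427, 560 and 627 CPM, lowest in E0771-Res2. The part of each gene in the ratio was not tested. Among single genes in macrophages, E0771-Res2 did not overlap with E0771 for 37.5% and with E0771-Res1 for 20.5%. In monocytes the mean ratios were 0.277 ± 0.0777 (SD, n = 2) in E0771, 0.384 ± 0.0582 (n = 3) in E0771-Res1 and 0.308 ± 0.0501 (n = 3) in E0771-Res2, with overlap between lines. Over 8 mice the mean was 0.518 in macrophages, 0.355 in lymphoid cells, 0.329 in monocytes and 0.182 in dendritic cells. A ratio over chosen genes was given no test.

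The ratio stood for different genes in each class. By the median over mice, Hpgds made 52.8% and Ptgs2 45.9% of the prostaglandin UMIs in macrophages, whereas Ptgs2 made 84.4% and Hpgds 13.1% in monocytes, and Alox5ap made 94.8% and 96.2% of the leukotriene UMIs. Without Ptgs2 the macrophage ratio was 0.503 in E0771-Res2, 0.238 in E0771 and 0.203 in E0771-Res1. The order of the lines in macrophages was the same with and without Ptgs2.

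**Figure D4:**
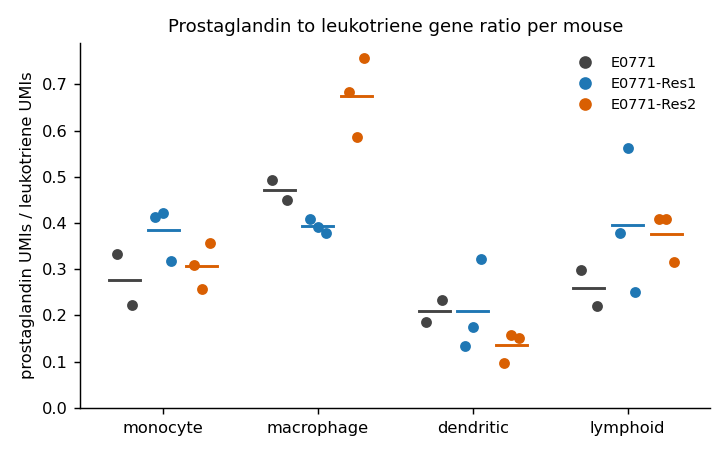
Ratio of prostaglandin gene UMIs to leukotriene gene UMIs per mouse (vertical axis from 0, no unit) in 4 cell classes, by tumor line. Points are mice and bars the means of a line. The 3 E0771-Res2 mice lie at 0.585 to 0.757 in macrophages, above the other 5, and no such separation is seen in monocytes.

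Within macrophages, after thinning, Ptgs2 had a UMI in a median of 8.68% of macrophages with an Hpgds UMI and 15.9% of those without, and the share was higher with Hpgds in 1 of 8 mice. In monocytes the medians were 26.4% and 21.1%, higher with Hpgds in 4 of 8 mice. The receptor went with the activating protein, as Ltb4r1 was found in 7.97% of macrophages with an Alox5ap UMI and 3.60% without, and in 20.5% and 13.1% of monocytes, higher in 8 of 8 mice in both classes. Cells of a mouse come from the same animal and these shares were not tested.

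Over the 32 sums of 8 mice and 4 classes, the log2 CPM of Ptgs2 correlated with Alox5ap at r = 0.82 and with Ltb4r1 at 0.81, and Hpgds with Lta4h at -0.78. Ptgs2 and Hpgds gave 0.27. Of 5798 other genes, the most alike to Hpgds were Ms4a7 (0.94), Trem2 (0.92) and C3ar1 (0.92), and to Ptgs2 Osm (0.91), Tor1aip1 (0.90) and Pitpna (0.90). Alox5ap was most like Acer3 (0.97), Arpc1b (0.97) and Mcub (0.96), Ltb4r1 most like Pitpna (0.89), Plaur (0.89) and Gripap1 (0.88), and Lta4h most like Klrd1 (0.86), Fyn (0.86) and Fam110a (0.85), the first a receptor subunit and the second a kinase of lymphocytes. The 4 sums of a mouse come from the same animal and the classes differ in most genes, so these values describe the order of the classes.

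Around the members, 60 further genes of arachidonate supply, prostanoid and leukotriene metabolism and their receptors were followed, of which 34 were tested between classes. Macrophages had 10 higher and 6 lower than monocytes, beside 24.9% higher and 24.2% lower among all genes. The higher ones included 5 of 7 tested prostanoid enzymes, with Akr1b8 at 1.17 on the log2 scale (adjusted p = 0.000595), the desaturase Fads1 (1.67, adjusted p = 1.41e-08) and the lysosomal phospholipase Pla2g15 (1.17, adjusted p = 9.99e-14). The lower ones included the glutathione transferase Mgst1 (-2.64, adjusted p = 4.52e-18), the prostacyclin receptor Ptgir (-2.11, adjusted p = 1.08e-09) and Hpgd, which breaks down prostaglandins (-1.64, adjusted p = 4.95e-06). The list's median was 0.05, beside 0.02 over all genes. Some of the named genes were at low levels. Means in macrophages and monocytes were 7.63 and 3.47 CPM for Akr1b8 and 11.7 and 3.34 for Fads1. They were 3.62 and 13.8 CPM for Ptgir and 6.50 and 16.9 for Hpgd. The values of the mice overlapped between the classes for Akr1b8 and Hpgd.

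Lymphoid cells had 5 of the 34 higher and 19 lower than monocytes, and 67.9% of all genes were called in that contrast. Higher were Faah, which hydrolyses fatty acid amides (4.79, adjusted p = 2.86e-18), the cysteinyl leukotriene receptor Cysltr2 (3.06, adjusted p = 5.24e-15) and Mgst2 (1.98, adjusted p = 8.54e-10), and lower were Hpgd (-3.88, adjusted p = 1.96e-07), Mgst1 (-3.42, adjusted p = 7.74e-18) and the leukotriene B4 hydroxylase Cyp4f18 (-2.76, adjusted p = 2.98e-18). Dendritic cells had 7 higher and 17 lower than macrophages, where 47.7% of all genes were called. Fads2 (3.19, adjusted p = 2.96e-06), the prostaglandin E2 receptor Ptger4 (1.25, adjusted p = 1.88e-10) and Gpx4 (1.04, adjusted p = 1.00e-12) were higher, and Pla2g15 (-3.46, adjusted p = 1.43e-16), Prxl2b (-2.91, adjusted p = 2.26e-15) and Pla2g7 (-2.53, adjusted p = 2.32e-14) were lower. Here too some levels were low. Lymphoid and monocyte means were 28.8 and 0.698 CPM for Faah and 1.41 and 16.9 for Hpgd. Dendritic and macrophage means of Fads2 were 10.0 and 1.18 CPM. None of the 4 other lipoxygenase genes passed the filter.

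Between lines, in monocytes of E0771-Res2 against E0771, 1 of 34 was higher, Ptger4 (0.72, adjusted p = 0.0164), and 2 were lower, the cytosolic phospholipase Pla2g4a that frees arachidonic acid (-0.65, adjusted p = 0.0140) and Cysltr1 (-0.55, adjusted p = 0.0256). Against E0771-Res1, Pla2g15 was higher (0.59, adjusted p = 0.0200) and the leukotriene C4 exporter Abcc1 lower (-0.73, adjusted p = 0.00741), and Abcc1 was higher in E0771-Res1 than in E0771 (1.01, adjusted p = 0.0430). In macrophages 0 of 31 were called against E0771 in either line, and Fads1 was lower in E0771-Res2 than in E0771-Res1 (-1.06, adjusted p = 0.0438). Pla2g7, the platelet-activating factor hydrolase, was higher in lymphoid cells of E0771-Res2 than of E0771-Res1 (1.59, adjusted p = 0.000991). Its means there were 131 and 44.5 CPM, beside 411 CPM in monocytes and 388 CPM in macrophages over all mice. The macrophage check markers summed to 343 to 348 and 242 to 286 CPM in these lymphoid cells. The part of free RNA in the Pla2g7 result was not tested. The interaction called 0 of 34, beside 0.221% of all genes for E0771-Res2 and 0.0402% for E0771-Res1. Of all genes, 4.80% were called in monocytes of E0771-Res2 against E0771, 4.24% against E0771-Res1 and 0.0519% for E0771-Res1 against E0771. The share was 1.98% in macrophages of E0771-Res2 and 0.143% in those of E0771-Res1, each against E0771, 2.62% in macrophages between the resistant lines and 0.964% in lymphoid cells between them. The calls of Pla2g7 and of Abcc1 against E0771-Res1 were kept in every fit that left out 1 mouse. Ptger4 lost its call without E0771 replicate 3 (0.43, adjusted p = 0.235) or E0771-Res2 replicate 3 (0.0616). Pla2g4a lost it without E0771 replicate 1 (adjusted p = 0.0532) or 3 (0.193) or E0771-Res2 replicate 3 (0.0683), and Cysltr1 without E0771 replicate 1 (0.128) or 3 (0.212) or E0771-Res2 replicate 1 (0.0635) or 3 (0.0858). Pla2g15 lost it without E0771-Res1 replicate 1 (adjusted p = 0.0568) or 3 (0.0752) or E0771-Res2 replicate 1 (0.0937) or 3 (0.0890). Abcc1 in E0771-Res1 against E0771 lost it without any mouse but E0771-Res1 replicate 3 (highest adjusted p = 0.693), and Fads1 without any mouse but E0771-Res1 replicate 3 (highest 0.285).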

How the data were processed

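Single-cell 3′ libraries of CD45+ cells (Chromium v3.1, mice tagged with multiplexing oligos and pooled) were processed by the authors with Cell Ranger on mm10. The deposited matrices hold raw UMI counts per gene and cell, 1 matrix per mouse. The strand setting of counting was not given in the sources used here. Replicate 2 of the E0771 mice was not analysed here. Cells with 500 to 6000 genes and under 10% mitochondrial UMIs were kept, and mitochondrial, ribosomal and Gm genes (20.4% of UMIs) were left out of sums. UMIs were summed per mouse and class and tested with edgeR 4.0.16 (quasi-likelihood, TMM scaling, Benjamini-Hochberg adjustment, 0.05) in R 4.3.3, with the mouse as a block between classes. Printed CPM are not scaled by TMM. DESeq2 1.42.0 was an alternative. No doublet caller was run, and an alternative left out the 5% of cells with most UMIs. In simulated data with 200 genes changed by 1 on the log2 scale, the fit recovered 91.0% for macrophages against monocytes, 65.5% and 67.5% for E0771-Res1 against E0771 in macrophages and monocytes, and 46.0% for the interaction. Replicate mice differed by more than sampling noise (chi-square per degree of freedom 2.69 to 13.2). Each sample is 1 mouse, and p-values measure the spread between these mice. The members and gene lists were chosen with earlier results of these data known. Named genes of the wider pathway are up to 3 called genes with the largest change in each direction of a contrast, and the most alike genes are the 3 of highest Pearson correlation of log2 CPM.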

Additional observations from a re-analysis of the deposited data

Results flagged for a closer look

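Of 23 groups of 8 mice looked at for a value far from the rest, 2 held one, where chance gives about 1 in 20. Ltb4r1 in dendritic cells of E0771 replicate 3 was 106 CPM (19 UMIs in 27 cells), against 22.6 to 54.8 CPM in the other mice. Of these 27 cells, 14 were CD209A cells, the subset with more Ltb4r1, against 14 of 49 in E0771 replicate 1. The part of this mix in the value was not tested. Ptgs2 in lymphoid cells of E0771-Res1 replicate 2 was 107 CPM (31 UMIs in 53 cells), against 21.9 to 61.5 CPM. The lymphoid cells of that mouse also held 1516 CPM of 5 neutrophil genes, and their part in the result was not tested.

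Cells outside the 4 classes also gave a signal. In the 22 cells that met the neutrophil gate, Ptgs2 was at 817 CPM (76 UMIs, 95% Poisson interval 644 to 1023), above the highest sum of any mouse in the 4 classes (412 CPM). In 2 cells of the mast or basophil gate it was at 1066 CPM (17 UMIs, 621 to 1707). None of the 14 interaction tests of members was called by edgeR.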

How the results depend on the processing

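Each member difference was compared with its main fit in each alternative. Over alternatives that left no mouse out, 520 of 541 such comparisons kept direction and side of the threshold. With 1 mouse left out, 538 of 574 did, and 24 lost a call. These totals take in contrasts between classes and differences that were not called, so they do not give the share of line calls kept. Named genes of the pathway and dissociation lists lost their call in 38 of 850 and 86 of 857 comparisons. With a single E0771 mouse, that mouse is assumed to vary like the other groups. The cause of each change was not tested. Member differences that were not called and lay under 1 SE were not followed. The number of mice and, in dendritic cells, the few UMIs limit what can be detected.

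The sign reversed for the Ptgs2 interaction of E0771-Res2 without E0771 replicate 3 (0.17) and without the 5% of cells with most UMIs (0.03), for dendritic Ltb4r1 in E0771-Res2 against E0771 without E0771 replicate 3 (0.61), and for macrophage Ltc4s in E0771-Res1 against E0771 without E0771 replicate 1 (-0.12). The other ends of these ranges were -0.81, -1.59 (both without E0771 replicate 1) and 3.21 (without E0771 replicate 3).

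In the following counts of genes called, contrasts are in the order E0771-Res1 against E0771, E0771-Res2 against E0771, E0771-Res2 against E0771-Res1. With no filter on low counts they were 14, 42 and 41 in dendritic cells, 55, 129 and 213 in lymphoid cells, 350, 566 and 579 in macrophages and 151, 804 and 749 in monocytes, with 81 and 160 for the interaction. The main counts were 0, 4 and 2, then 2, 17 and 69, then 13, 180 and 238, then 5, 463 and 409, with 4 and 22. DESeq2 gave 0 and 12 for the interaction, 8 for dendritic E0771-Res2 against E0771, 1 and 26 for the first 2 lymphoid contrasts, and 74 in macrophages and 28 in monocytes for E0771-Res1 against E0771. Monocytes with no C1qa UMI gave 1, 184 and 182, with 0 and 5 for the interaction. Without the 5% of cells with most UMIs, lymphoid cells gave 1, 58 and 219, the interaction 8 and 59, and E0771-Res1 against E0771 gave 45 in macrophages and 0 in monocytes. A C1qa minimum of 20 gave 35 for macrophages of E0771-Res1 against E0771 and 10 for the E0771-Res2 interaction. Gates scaled to depth gave 4 for dendritic E0771-Res2 against E0771-Res1, 41 and 37 for the lymphoid contrasts of E0771-Res2, and 45 in macrophages and 0 in monocytes for E0771-Res1 against E0771.

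Same-numbered mice did not deviate together from the means of their lines (correlations -0.158 to 0.0826). Such deviations cancel out within a line of so few mice, so the check cannot decide whether the numbers pair the mice. With the replicate block, 2 genes were called for dendritic E0771-Res2 against E0771, and 4, 36 and 26 in lymphoid cells, macrophages and monocytes for E0771-Res1 against E0771. With this replicate block, macrophage Ltb4r1 was called against E0771 (-1.29, adjusted p = 0.0142) and E0771-Res1 (-0.92, adjusted p = 0.0228), as were monocyte Ptgs2 (-0.67, adjusted p = 0.0145) and Alox5ap (-0.44, adjusted p = 0.0194) against E0771.

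Ptgs2 in macrophages lost its call against E0771 with gates scaled to depth (adjusted p = 0.0554) and without the 5% of cells (0.0650), and against E0771-Res1 with a C1qa minimum of 20 (0.0876). With no filter on low counts Alox5ap was called against E0771 in macrophages (0.0218) and monocytes (0.0481), and macrophage Ltb4r1 against E0771 (1.12e-06) and E0771-Res1 (1.18e-05). DESeq2 also called macrophage Ltb4r1, against E0771 (-1.06, adjusted p = 0.0180) and E0771-Res1 (-0.89, adjusted p = 0.0390).

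The macrophage ratio was 0.410 in E0771-Res1 with gates scaled to depth, 0.435 in E0771 and 0.410 in E0771-Res1 without the 5% of cells, and 0.412 in E0771-Res1 without Lta4h, where the lymphoid ratio was 0.514. Without Ptgs2 it was 0.0635 in monocytes (0.0408, 0.0357 and 0.106 in E0771, E0771-Res1 and E0771-Res2), 0.324 in macrophages (0.238, 0.203 and 0.503), 0.0373 in dendritic and 0.128 in lymphoid cells.

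Leaving out 1 mouse gave, for genes called between classes, 3959 to 4419 (dendritic against macrophage), 3658 to 4129 (dendritic against monocyte), 4133 to 4647 (lymphoid against dendritic), 5347 to 5979 (lymphoid against macrophage), 5653 to 6280 (lymphoid against monocyte) and 3896 to 4516 (macrophage against monocyte). Between lines it gave 0 to 2, 1 to 11 and 0 to 4 in dendritic cells, 0 to 3, 1 to 66 and 36 to 154 in lymphoid cells, 1 to 244, 22 to 367 and 85 to 286 in macrophages, 0 to 9, 32 to 571 and 147 to 488 in monocytes, and 1 to 55 and 5 to 61 for the interaction. Ratios ran from 0.315 to 0.344 in monocytes (0.222 to 0.332, 0.365 to 0.417 and 0.283 to 0.333 by line), 0.484 to 0.538 in macrophages (0.450 to 0.492, 0.385 to 0.400 and 0.635 to 0.721), 0.162 to 0.194 in dendritic and 0.326 to 0.375 in lymphoid cells.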
